A study of Drosophila melanogaster with 4 samples.

Results

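Transcripts of the translation initiation factors named eIF were measured by RNA sequencing in wing imaginal discs of Drosophila melanogaster, the sheets of larval epithelium from which wing and notum develop. The deposited table lists 17559 genes, and 29 of them have a gene name that begins with eIF in any letter case, which was the only criterion for membership. Of these 29 members, 28 were matched to a gene of the current annotation by their identifier, and 1 (eIF-5A) was not. Discs were taken from larvae at the third instar. There were 2 libraries of y w control discs and 2 of Paip1 mutant discs. Paip1 encodes a partner of the poly(A)-binding protein, and in mammals it also binds eIF4A and eIF3. The labels name neither the Paip1 allele nor whether the mutant carries the y and w alleles, so effects of the strain and of the Paip1 mutation cannot be told apart. Replicates are numbered, but nothing says that they are separate dissections, so the p-values reflect a spread that may be technical.

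In eukaryotes, eIF2 carries the initiator tRNA to the small ribosomal subunit as a complex with GTP, and eIF2B recharges eIF2 with GTP after each round. eIF1, eIF1A, eIF3 and eIF5 join the small subunit and set it up to scan for a start codon. The cap-binding protein eIF4E, the scaffold eIF4G and the helicase eIF4A bring the mRNA in, and eIF4G also holds the poly(A)-binding protein. eIF5B then joins the large ribosomal subunit, which eIF6 binds and keeps from joining too early. Wing discs grow by cell division through the larval stages and are known to depend on a high rate of protein synthesis.

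Values are TPM, a transcript's share of its library after correction for transcript length, so levels can be set beside each other between genes. TPM keeps no read depth, and the depth is therefore unknown. Differences were tested with limma on log2(TPM + 1) across the 8605 genes that reached 1 TPM in 2 or more libraries. The threshold was a Benjamini-Hochberg adjusted p of 0.05, and a fold change is on that log2 scale, mutant over control. The listed values made up 91.9% and 93.6% of the full TPM scale in the mutant libraries and 99.6% and 99.7% in the control libraries. Over the tested genes the median log2 fold change was -0.22 as deposited, -0.12 after rescaling to a common sum, and 0.00 after scaling by the median ratio of the genes, so each change below is to be read against that median. Paip1, listed as CG8963, stood at 112 and 121 TPM in the control libraries and at 2.37 and 2.22 TPM in the mutant libraries. The 10 wing disc markers were all detected and summed to 995 and 988 TPM in control and to 490 and 606 TPM in mutant discs. Of them, 8 were lower and passed the threshold, where 29.1% of all tested genes were lower and passed. The log2 fold changes of wg (0.31) and dpp (0.09) were positive and did not pass as deposited. Under median-ratio scaling both passed on the higher side (limma adjusted p = 0.0291 and 0.0406). Muscle markers summed to 186 and 203 TPM in control and to 15541 and 15481 TPM in mutant discs, fat body markers to 1073 and 372 against 236 and 21.2, and hemocyte markers to 23.0 and 33.4 against 44.4 and 52.8. Of the muscle marker sum, 158 and 160 TPM in control and 15295 and 15303 TPM in mutant discs came from 1 gene, sls. Each of the 10 muscle markers was higher in mutant discs and passed the threshold, where 15.6% of all tested genes were higher and passed. Their median log2 fold change was 2.79. The part of these other cell types in the changes of the eIF genes was not tested. In whole discs, fewer cells of a type and less RNA per cell cannot be told apart.

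Most eIF genes stood close to one another in control and mutant discs, and 2 moved by about 1 log2 unit in opposite directions. eIF6 rose and eIF4AIII fell. Smaller changes passed the test in eIF2B-alpha, which rose, and in eIF5 and eIF-3p40, which fell. Of the 29 members, 24 were expressed highly enough to be tested, and the 5 that were not are all paralogs of the cap-binding protein eIF4E. The 5 genes past the threshold are to be read against the 44.8% of all tested genes that passed it, of which 15.6% were higher and 29.1% lower in the mutant. Under median-ratio scaling 7 members were higher and 1 was lower, where 38.7% of all tested genes passed, 21.8% higher and 16.9% lower. After rescaling to a common sum 2 were higher and 2 lower, where 39.6% of all tested genes passed, 17.5% higher and 22.1% lower. By limma the number of members past the threshold was 0 without control replicate 1 (2 at an unadjusted p under 0.05, against 7 with all libraries), where 11.8% of all tested genes passed. It was 1 without control replicate 2 (12.8% of all tested genes), 2 without mutant replicate 1 (21.4%) and 4 without mutant replicate 2 (38.0%).

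The members' median log2 fold change was -0.13, and 15 of the 24 lay above the median of all tested genes. As deposited, a change of at least 0.5 log2 units in either direction was found in 3 members, or 12.5%, and in 43.9% of all tested genes. The median of all tested genes was then -0.22, and the shares were not matched for level. Under median-ratio scaling the share of all tested genes was not computed. The 19 members that did not pass spanned log2 fold changes from -0.35 to 0.17 as deposited and from -0.12 to 0.40 under median-ratio scaling. In 13 members both mutant libraries lay below both control libraries, as they did in 52.8% of all tested genes. In 4 members both mutant libraries lay above both control libraries, as in 25.1% of all tested genes, and in the other 7 the groups overlapped. The eIF genes were abundant, with a median level of 226 TPM against 25.8 TPM for all tested genes, so the pseudocount of 1 moved few of their values. All members together summed to 9584 and 9589 TPM in control and to 8580 and 8688 TPM in mutant discs. The mutant libraries held less, at a log2 ratio of -0.15, but the ratio was 0.08 under median-ratio scaling, and an exact two-sided permutation test of 2 against 2 libraries cannot go below p = 0.333, the value found. As a share of all listed TPM the members made up 0.963% and 0.962% in control and 0.933% and 0.928% in mutant discs. Much of the difference in the sum lay in 1 gene, eIF-5A, which did not pass the test. It was at 3096 and 2905 TPM in control and at 2635 and 2103 TPM in mutant discs. The sum and share without eIF-5A were not computed.

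**Figure D1:**
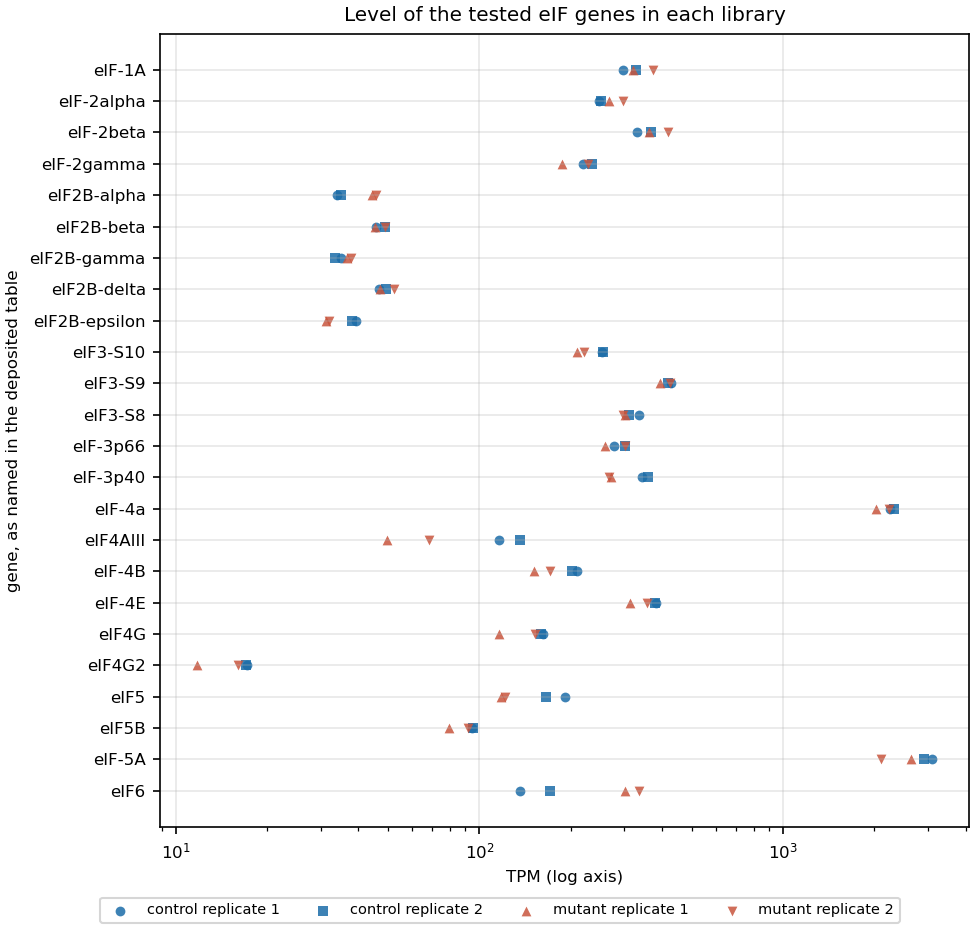
Level of each of the 24 tested eIF genes in each of the 4 libraries, in TPM on a log axis, with control libraries in blue and mutant libraries in red. The mutant points of eIF6 (301 and 336 TPM) lie to the right of its control points (136 and 171 TPM), those of eIF4AIII (49.8 and 68.3 TPM) lie to the left of its control points (116 and 137 TPM), and eIF-5A and eIF-4a lie far to the right of all others.

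**Figure D2:**
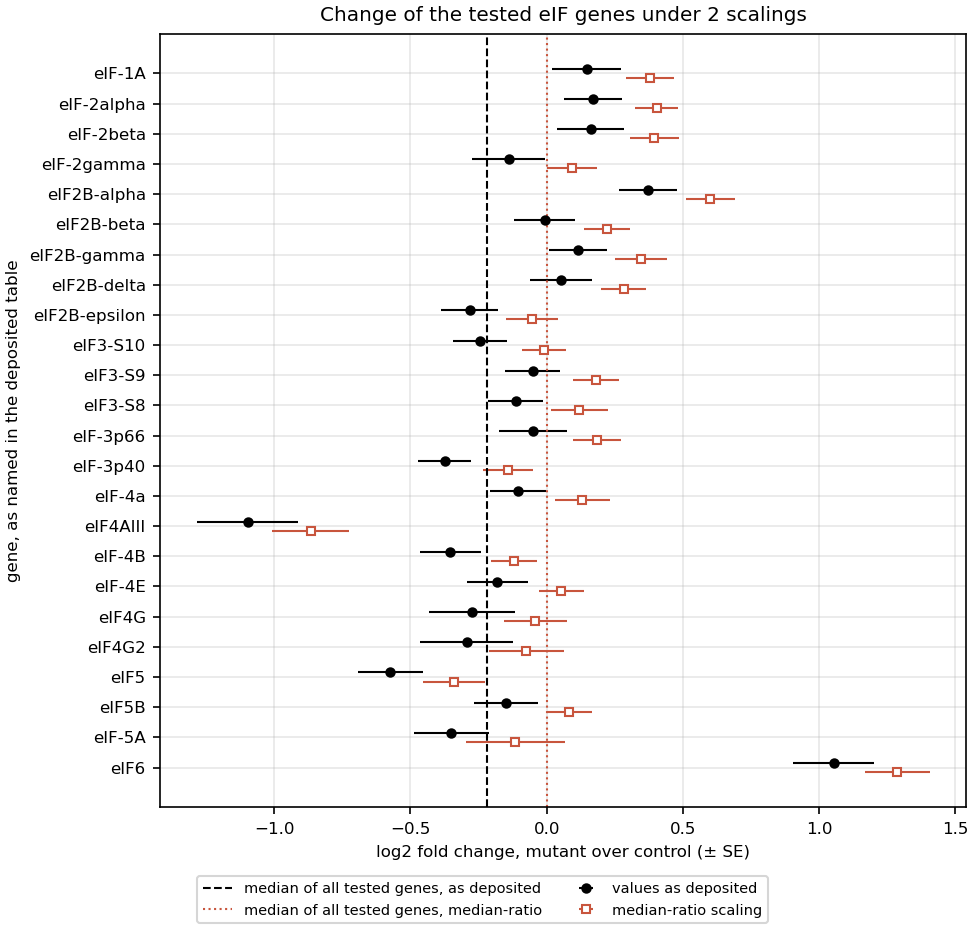
Log2 fold change of each tested eIF gene, mutant over control, with its standard error, as deposited (filled circles) and under median-ratio scaling (open squares), and the median of all tested genes under each (vertical lines). Under both scalings eIF6 (1.05 and 1.29) and eIF4AIII (-1.10 and -0.87) lie farthest from the lines.

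Among the factors that deliver the initiator tRNA, the 3 subunits of eIF2 did not pass the test as deposited. eIF-2alpha, the subunit that stress kinases phosphorylate, stood at 248 and 252 TPM in control and at 267 and 297 TPM in mutant discs (log2 fold change 0.17, SE 0.11, limma adjusted p = 0.240). The tRNA-contacting eIF-2beta was measured at 330 and 367 TPM in control and at 362 and 417 TPM in mutant discs (log2 fold change 0.16, adjusted p = 0.325). Both were past the threshold on the higher side under median-ratio scaling, with log2 fold changes of 0.40 (limma adjusted p = 0.0159) and 0.39 (0.0240). eIF-2gamma, the GTP-binding subunit, was at 220 and 235 TPM in control and at 187 and 227 TPM in mutant discs, a log2 fold change of -0.14 as deposited and 0.09 under median-ratio scaling. Within the summed eIF2 transcripts, the eIF-2gamma share was 27.5% and 27.6% in control and 22.9% and 24.1% in mutant discs, so the groups did not overlap (exact permutation p = 0.333, the smallest the design allows). Nor did they overlap in the eIF-2alpha share (31.1% and 29.5% against 32.7% and 31.5%). The same held for the eIF-2beta share (41.3% and 42.9% against 44.3% and 44.3%). eIF-2gamma shares 352 exonic base pairs with Su(var)3-9, a histone methyltransferase gene, which was at 22.3 and 21.2 TPM in control and at 13.9 and 18.5 TPM in mutant discs, and the reads of the shared part cannot be assigned to one of them here. The sum of the 3 subunits was 798 and 855 TPM in control and 817 and 941 TPM in mutant discs, and the groups overlapped.

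eIF2B, the exchange factor of eIF2, has a catalytic epsilon subunit with its partner gamma and a regulatory core of alpha, beta and delta. eIF2B-alpha rose, from 33.9 and 34.9 TPM in control to 44.2 and 45.6 TPM in mutant discs. Its log2 fold change was 0.37 (SE 0.10, limma adjusted p = 0.0379), and 0.60 under median-ratio scaling (adjusted p = 0.0073). Both mutant libraries lay above both control libraries. It failed when any 1 library was dropped, with an adjusted p between 0.0706 (without mutant replicate 2) and 0.227 (without control replicate 1), and without a variance trend it was 0.0538. The gene lies on chromosome 3R from 29934582 to 29935888 on the minus strand of dm6.

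The other 4 eIF2B subunits did not pass as deposited. eIF2B-epsilon was at 39.2 and 38.2 TPM in control and at 31.2 and 32.0 TPM in mutant discs (log2 fold change -0.28, adjusted p = 0.0777), with the groups apart. eIF2B-beta, eIF2B-gamma and eIF2B-delta had log2 fold changes of -0.01, 0.12 and 0.05, and under median-ratio scaling they were 0.22, 0.34 and 0.28, the last 2 past the threshold on the higher side (adjusted p = 0.0427 and 0.0493). Because shares within a factor do not depend on the scaling of a library, they show the subunits against each other. eIF2B-alpha made up 16.9% and 17.0% of the summed eIF2B transcripts in control and 21.6% and 21.0% in mutant discs. The epsilon share went the other way, 19.6% and 18.6% in control against 15.3% and 14.8% in mutant discs. Groups did not overlap in either share, and each test gave the smallest exact permutation p of 0.333. They did not overlap in the beta share either (22.8% and 23.9% against 22.1% and 22.6%), and they overlapped in the gamma share. The delta share was alike, at 23.2% and 24.1% against 23.1% and 24.1%. Summed eIF2B came to 201 and 205 TPM in control and to 205 and 217 TPM in mutant discs, and the ratio of eIF2 to eIF2B was 3.98 and 4.17 in control and 3.99 and 4.34 in mutant discs.

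**Figure D3:**
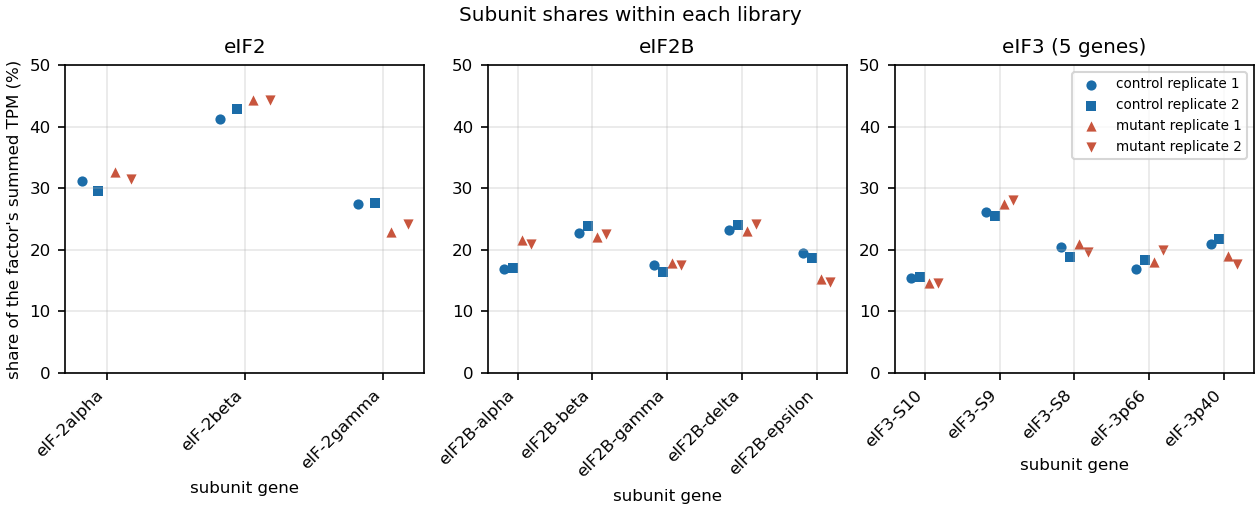
Share of each subunit gene in the summed TPM of its factor (percent, y axis) in each library, for eIF2, eIF2B and the 5 eIF3 subunits whose names begin with eIF. The eIF2B-alpha share is higher (21.6% and 21.0% against 16.9% and 17.0%) and the eIF2B-epsilon share lower (15.3% and 14.8% against 19.6% and 18.6%) in both mutant libraries. The eIF-2gamma, eIF-3p40, eIF2B-beta and eIF3-S10 shares are also lower in both, and the eIF-2alpha, eIF-2beta and eIF3-S9 shares are higher in both.

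Of the factors that act at the start codon, eIF5 fell and eIF-1A did not pass. eIF5, the GTPase-activating partner of eIF2, was at 192 and 166 TPM in control and at 118 and 122 TPM in mutant discs. The groups did not overlap, and the log2 fold change was -0.57 (SE 0.12, adjusted p = 0.0165). It was -0.34 under median-ratio scaling and no longer past the threshold (adjusted p = 0.0700), and it failed when any 1 library was dropped, with an adjusted p between 0.0539 (without mutant replicate 2) and 0.140 (without control replicate 1). The gene lies on chromosome X from 15987008 to 15991974, minus strand, and shares 2588 of its 3203 exonic base pairs with CG46312 on the same strand, a gene for which no value is used here. eIF-1A, which helps the small subunit scan, was at 297 and 327 TPM in control and at 320 and 373 TPM in mutant discs, with a log2 fold change of 0.15 as deposited (adjusted p = 0.374) and 0.38 under median-ratio scaling (0.0263). eIF5B, the GTPase of subunit joining, was at 94.6 and 94.97 TPM in control and at 79.4 and 91.9 TPM in mutant discs (log2 fold change -0.15, adjusted p = 0.341). The ratio of eIF5 to summed eIF2 transcripts, which no scaling of a library moves, was 0.241 and 0.194 in control and 0.144 and 0.129 in mutant discs. Both mutant ratios lay below both control ratios (exact permutation p = 0.333).

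eIF3 is the largest initiation factor, a scaffold of many subunits on the small ribosomal subunit, and 5 of the genes listed for it carry an eIF name. eIF-3p40, which encodes the h subunit, fell from 343 and 358 TPM in control to 272 and 268 TPM in mutant discs. Its log2 fold change was -0.37 (SE 0.10, adjusted p = 0.0314), but -0.14 under median-ratio scaling (adjusted p = 0.280) and -0.27 after rescaling to a common sum (0.0742), neither past the threshold. It failed when any 1 library was dropped, with adjusted p-values from 0.0537 (without mutant replicate 2) to 0.224 (without control replicate 2), and it was 0.0533 without a variance trend. The gene lies on chromosome 2L from 5051193 to 5053094 on the minus strand. It shares 252 base pairs with senju on the opposite strand.

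The other 4 eIF3 members were not past the threshold. eIF3-S10, the a subunit, was at 253 and 256 TPM in control and at 209 and 220 TPM in mutant discs (log2 fold change -0.24, adjusted p = 0.0982). eIF3-S8, eIF3-S9 and eIF-3p66, the c, b and d subunits, had log2 fold changes of -0.11, -0.05 and -0.05 as deposited and 0.12, 0.18 and 0.18 under median-ratio scaling. The eIF-3p40 share of these 5 subunits was 21.0% and 21.8% in control and 19.0% and 17.7% in mutant discs, and the eIF3-S9 share was 26.1% and 25.4% against 27.4% and 28.0%. The eIF3-S10 share was 15.5% and 15.5% against 14.6% and 14.6%. Groups did not overlap in any of these shares, and they overlapped in the eIF3-S8 and eIF-3p66 shares. A further 8 tested eIF3 subunits are listed under other names. Over all 13 tested subunits 1 passed the test, eIF-3p40, where 44.8% of all tested genes passed. The log2 fold change was negative in 12 of the 13 as deposited, in a range from -0.37 to 0.10, and 2968 of the 8605 tested genes had a positive one. Under median-ratio scaling, which moved the median of all tested genes from -0.22 to 0.00, the range was -0.14 to 0.34, and the 1 subunit gene past the threshold was then CG5642, the l subunit, on the higher side (0.34, adjusted p = 0.0317). The 13 summed to 4097 and 4178 TPM in control and to 3675 and 3796 TPM in mutant discs.

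The tested genes of the factors that recruit the mRNA, eIF-4a, eIF-4B, eIF-4E, eIF4G and eIF4G2, did not pass the limma test, and of them eIF-4B alone had an unadjusted p under 0.05 (0.0232). eIF-4a, the helicase that unwinds the mRNA leader, was the second most abundant member, at 2246 and 2323 TPM in control and at 2027 and 2229 TPM in mutant discs. Its log2 fold change was -0.10 (95% interval -0.36 to 0.16, adjusted p = 0.437), and 0.13 under median-ratio scaling. eIF-4E, the main cap-binding protein, was at 380 and 379 TPM in control and at 314 and 357 TPM in mutant discs (log2 fold change -0.18, 95% interval -0.46 to 0.10, adjusted p = 0.230), with 0.05 under median-ratio scaling. eIF4G, the scaffold that binds the poly(A)-binding protein, was at 162 and 160 TPM in control and at 116 and 153 TPM in mutant discs (log2 fold change -0.28, adjusted p = 0.201). Without mutant replicate 2 it passed the threshold (log2 fold change -0.47, adjusted p = 0.0361), so mutant replicate 1 carries most of the difference. eIF-4B, which stimulates eIF4A, was at 209 and 203 TPM in control and at 152 and 171 TPM in mutant discs (log2 fold change -0.35, adjusted p = 0.0513, and 0.0406 without mutant replicate 2). eIF4G2, a paralog of eIF4G needed for spermatogenesis in flies, was the lowest tested member at 17.1 and 17.0 TPM in control and at 11.8 and 16.0 TPM in mutant discs. It shares 779 exonic base pairs with CG33111 on the same strand, which was at 47.2 and 50.9 TPM in control and at 30.9 and 37.8 TPM in mutant discs.

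Ratios within a library set these genes against each other. eIF-4E stood at 2.34 and 2.37 times eIF4G in control and at 2.71 and 2.34 times in mutant discs. eIF-4a stood at 13.8 and 14.5 times eIF4G in control and at 17.5 and 14.6 times in mutant discs, where the library with the lowest eIF4G, mutant replicate 1, gave the highest ratio. eIF4G2 was at 0.106 of eIF4G in both control libraries and at 0.102 and 0.105 in the mutant libraries.

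eIF4AIII fell the most of all members. It encodes the helicase at the centre of the exon junction complex, which splicing leaves on mRNA, and it is related to eIF4A in sequence but does not act as the initiation helicase. It was at 116 and 137 TPM in control and at 49.8 and 68.3 TPM in mutant discs. Both mutant libraries lay far below both control libraries, and the level on the log2(TPM + 1) scale was 2.14-fold higher in control. The log2 fold change was -1.10 (SE 0.19, 95% interval -1.57 to -0.63, adjusted p = 0.0097) as deposited and -0.87 under median-ratio scaling (adjusted p = 0.0094). It lost the threshold without control replicate 1 (adjusted p = 0.0552) or control replicate 2 (0.0790). The ratio of eIF4AIII to eIF-4a was 0.052 and 0.059 in control and 0.025 and 0.031 in mutant discs. The gene, whose current symbol is CG7483, lies on chromosome 3R from 8313208 to 8314864 on the plus strand, and overlaps Coq2 on the opposite strand by 81 base pairs. Coq2 was at 6.69 and 8.05 TPM in control and at 6.24 and 7.80 TPM in mutant discs.

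eIF6 rose the most of all members. It binds the large ribosomal subunit, keeps it apart from the small one, and is needed to make that subunit in the nucleolus. It was at 136 and 171 TPM in control and at 301 and 336 TPM in mutant discs, or 154 ± 24.7 against 318 ± 24.6 TPM (SD, n = 2). Every mutant library was above every control library by more than the spread within a group. The log2 fold change was 1.05 (SE 0.15, 95% interval 0.68 to 1.43, adjusted p = 0.0060), a 2.08-fold rise, and 1.29 under median-ratio scaling (adjusted p = 0.0019). Without control replicate 1 it was 0.89 and just outside the threshold (adjusted p = 0.0520), and without any other single library it passed, with log2 fold changes from 0.97 to 1.22. As deposited the change was not extreme for these discs, since 1397 of the tested genes, itself included, had an absolute log2 fold change at least as large. That count is taken from 0, and eIF6 lay 1.27 above the median of all tested genes. The count taken from that median was not computed. The ratio of eIF6 to all other members together was 0.014 and 0.018 in control and 0.036 and 0.040 in mutant discs. Relative to eIF5B, which acts at subunit joining as well, eIF6 was 1.44 and 1.80 times as high in control and 3.79 and 3.66 times as high in mutant discs.

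The eIF6 gene lies on chromosome 2R from 23849246 to 23850301 on the minus strand, wholly within the span of ytr on the same strand, with 0 shared exonic base pairs. ytr was at 164 and 154 TPM in control and at 199 and 217 TPM in mutant discs (log2 fold change 0.39, adjusted p = 0.0371). Whether reads of unspliced ytr RNA were counted in eIF6 is not given in the sources used here and was not tested.

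eIF-5A, the most abundant member, is a small protein with the unusual amino acid hypusine that helps ribosomes through difficult sequences and at termination. It was at 3096 and 2905 TPM in control and at 2635 and 2103 TPM in mutant discs (log2 fold change -0.35, adjusted p = 0.0920). Both mutant libraries were lower, but mutant replicate 2 was well below mutant replicate 1. eIF-5A and eIF-4a together made up 55.7% and 54.5% of all members' TPM in control and 54.3% and 49.9% in mutant discs.

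The 5 members below the filter are cap-binding paralogs, eIF4E-3, eIF4E-4, eIF4E-5, eIF4E-6 and eIF4E-7. In every library each was at 0.64 TPM or less, and eIF4E-4 was listed at 0 in all 4. eIF4E-3, known for its role in the male germline of flies, was at 0.12 and 0.10 TPM in control and was listed at 0 and 0.11 TPM in mutant discs. eIF4E-6 was at 0.12 and 0.30 TPM in control and at 0.64 and 0.11 TPM in mutant discs. eIF4E-5 was at 0.06 and 0.10 TPM in control and at 0 and 0.23 TPM in mutant discs. eIF4E-7 was listed at 0 in both control libraries and at 0.04 and 0.12 TPM in the mutant libraries. How reads were divided between such paralogs is not known from the sources used here. The 14 testis and male germline markers summed to 23.4 and 21.8 TPM in control and to 26.1 and 27.0 TPM in mutant discs. Most of it came from mia, twe and bol. Of the 4 markers tested, 1 passed the threshold. It was Mst87F, a sperm tail gene, at 0 in both control libraries and at 2.54 and 3.25 TPM in the mutant libraries (limma adjusted p = 0.0046). twe was lower in both mutant libraries (7.16 and 6.71 TPM in control, 5.38 and 4.98 TPM in mutant discs). So was bol (1.91 and 1.73 against 1.64 and 1.44 TPM), while mia was higher in both (14.16 and 13.15 against 15.4 and 16.71 TPM). The markers ocn, Mst84Da and sa were at 0 in every library and aly, dj and betaTub85D were at 0.07 TPM or less. The untested bam, can, comr and fzo were at 0.46 TPM or less.

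A further 17 listed genes have a current symbol that begins with eIF but an older name in the deposited table, a set found only after the table had been seen. It includes the 8 eIF3 subunits under other names that were counted above. Of the 17, 13 were tested, and 3 passed, 1 higher and 2 lower, or 23.1% against 44.8% of all tested genes. With median-ratio scaling 4 passed, 2 in each direction, or 30.8% against 38.7%. CG17737, now eIF1, the guardian of start codon choice, fell from 542 and 567 TPM in control to 244 and 310 TPM in mutant discs (log2 fold change -1.01, SE 0.14, adjusted p = 0.0062), and it lost the threshold without control replicate 1 (0.0544) or 2 (0.0593). Rbp2, now eIF4H1, a cofactor of the eIF4A helicase, fell from 200 and 229 to 118 and 151 TPM (log2 fold change -0.68, adjusted p = 0.0227), and failed without control replicate 1 (0.0920), control replicate 2 (0.153) or mutant replicate 1 (0.0811). ligatin, now eIF2D, which can place tRNA on the small subunit without eIF2, rose from 23.3 and 24.9 to 44.96 and 43.8 TPM (log2 fold change 0.85, adjusted p = 0.0045), but not without control replicate 1 (0.0612). The 4 genes not tested, CG8335, CG4810, CG1340 and CG10881, were at 0.11 TPM or less in every library. Without control replicate 1 none of the 13 passed by limma (3 at an unadjusted p under 0.05), and without control replicate 2 there was 1.

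Around the eIF genes, 28 other initiation genes were tested, and 11 passed (39.3%, against 44.8% of all tested genes), 4 higher and 7 lower, with 6 higher and 3 lower under median-ratio scaling and 5 and 4 after rescaling to a common sum. The 7 lower include Paip1, the mutated gene itself. The lists share genes. Int6, Trip1, Adam and 4EHP are also in the set under older names, and pix is also in the elongation list. The median log2 fold change was -0.21. Thor, the 4E-BP that competes with eIF4G for eIF-4E, had the largest rise. It was at 0.086 and 0.070 times the eIF-4E transcript in control and at 0.486 and 0.284 times in mutant discs. 4E-T, which carries eIF4E to the nucleus and to P bodies, fell from 69.4 and 63.3 to 33.1 and 36.7 TPM (log2 fold change -0.91, adjusted p = 0.0049, and 0.0616 without control replicate 1). Pdcd4, which sequesters eIF4A, fell from 278 and 298 to 179 and 195 TPM (log2 fold change -0.62, adjusted p = 0.0108).

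PEK, the eIF2 kinase of the endoplasmic reticulum, rose from 54.3 and 45.5 to 75.1 and 76.3 TPM (log2 fold change 0.60, adjusted p = 0.0181). Gadd34, now PPP1R15, which directs the phosphatase to eIF2alpha, rose from 40.3 and 35.4 to 59.6 and 62.8 TPM (log2 fold change 0.68, adjusted p = 0.0106). CG5941, now MCTS1, a partner of DENR in reinitiation, rose from 112 and 122 to 185 and 182 TPM (log2 fold change 0.65, adjusted p = 0.0088). CG17514, now Gcn1, an activator of the eIF2 kinase Gcn2, fell from 70.5 and 57.7 to 47.9 and 44.4 TPM (log2 fold change -0.46, adjusted p = 0.0457), but under median-ratio scaling its log2 fold change was -0.23 (0.2855) and after rescaling to a common sum it did not pass either (0.0913). Gcn2 itself, at 23.7 and 17.5 TPM in control and 24.8 and 22.8 TPM in mutant discs, did not pass (0.343). Tor, the growth kinase upstream of Thor, fell from 32.6 and 28.4 to 19.8 and 19.8 TPM (log2 fold change -0.59, adjusted p = 0.0159, and 0.0706 under median-ratio scaling).

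Paip1's partner pAbp, the poly(A)-binding protein, was at 1033 and 951 TPM in control and at 773 and 775 TPM in mutant discs. It fell as deposited (log2 fold change -0.36, adjusted p = 0.0383) and did not pass under median-ratio scaling (-0.12, adjusted p = 0.416). Rack1, a ribosomal scaffold, was past the threshold as deposited (log2 fold change -0.34, adjusted p = 0.0352) and not under median-ratio scaling (0.498). Of the 11, Paip1 and Thor passed with each library left out in turn. 4E-T failed without control replicate 1 as given above, CG5941 failed without control replicates 1 (adjusted p = 0.0942) and 2 (0.0703), and Pdcd4 failed without control replicates 1 (0.0808) and 2 (0.108). Gadd34 failed without control replicates 1 (0.0668) and 2 (0.104) and mutant replicate 1 (0.0532). PEK (0.0718 to 0.147), Tor (0.0594 to 0.135), CG17514 (0.104 to 0.272), pAbp (0.0776 to 0.241) and Rack1 (0.0698 to 0.189) failed without each of the 4 libraries. With any 1 library left out, fewer genes passed both in this list and among all tested genes.

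Of 12 elongation, termination and recycling genes, 3 passed (25%, against 44.8% of all tested genes), 1 higher and 2 lower, or 2 higher and 1 lower both under median-ratio scaling and after rescaling to a common sum. HBS1, which with pelo frees stalled ribosomes, rose from 33.1 and 40.1 to 73.1 and 84.2 TPM (log2 fold change 1.08, adjusted p = 0.0052), and failed without control replicate 1 (0.0536). pelo fell from 45.8 and 40.3 to 27.1 and 24.9 TPM (log2 fold change -0.71, adjusted p = 0.0108), and failed without control replicate 1 (0.1001), control replicate 2 (0.0665) or mutant replicate 1 (0.0516). Elf, the release factor eRF3, fell from 152 and 156 to 109 and 120 TPM (log2 fold change -0.42, adjusted p = 0.0280, and 0.108 under median-ratio scaling), and failed without control replicate 1 (0.160), control replicate 2 (0.199) or mutant replicate 1 (0.0663). Without control replicate 1 none passed by limma (3 at an unadjusted p under 0.05), and without control replicate 2 or mutant replicate 1 there was 1. The list's median log2 fold change was -0.05. Of 89 tested cytosolic ribosomal protein genes, 45 were lower and 2 higher, with a median of -0.34. That was 52.8% past the threshold, against 44.8% of all tested genes (29.1% lower and 15.6% higher). Under median-ratio scaling 4 were lower and 5 higher, or 10.1%, against 38.7% of all tested genes (16.9% lower and 21.8% higher).

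**Figure D4:**
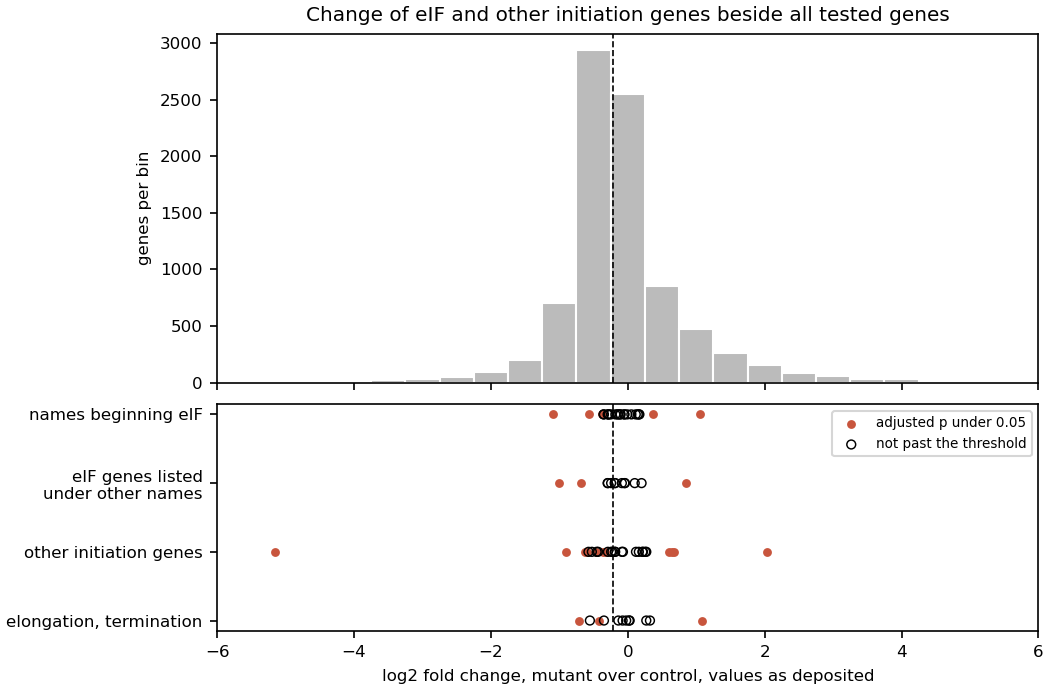
Number of tested genes per bin of log2 fold change, mutant over control, as deposited (upper panel), and the same value for the tested eIF genes, the eIF genes listed under other names, the other initiation genes and the elongation and termination genes (lower panel), filled where the adjusted p was under 0.05, with the median of all tested genes (-0.22) as a dashed line. Most eIF genes lie between -0.35 and 0.17, eIF6 (1.05) and eIF4AIII (-1.10) lie farthest outside that range, and the genes farthest out in the lower panel are Paip1 (-5.16) and Thor (2.04).

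The authors' deposited table holds its own comparison of the same libraries. At its adjusted p under 0.05, the authors' deposited table has 4 members higher and 2 lower in the mutant, where 40.7% of all genes tested here pass it, 19.9% higher and 20.8% lower. In the authors' deposited table the log2 fold change is 1.23 for eIF6, the 1 member it marks as changed. For eIF4AIII it is -0.93, with the authors' adjusted p at 3.1e-07. Among all genes that are marked as changed there, the smallest absolute log2 fold change is 1.0013. For eIF5 the authors' deposited table gives -0.41 (adjusted p = 0.0068), for eIF2B-alpha 0.56 (0.0066) and for eIF-3p40 -0.20 (0.162). The higher members in the authors' deposited table also include eIF-2alpha (0.35) and eIF-2beta (0.33). Across the 24 members its log2 fold changes lie above those computed here by a median of 0.17, with a range from 0.10 to 0.20.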

How the data were processed

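Per the labels, Trizol was used for RNA extraction and an Illumina HiSeq for sequencing. FastQC, TopHat, RSEM, DESeq and the build dm6 are named in the submitters' processing notes, with no versions or roles. The 1 table used holds 1 value per gene and library; its header names no unit, and the deposited values were taken to be TPM from their decimals and library sums. It also holds the authors' deposited fold (mutant to control ratio), log2 fold change, p-value and adjusted p-value, per the file headers. TPM divides by each library's own total, so a few very abundant genes lower all others. How reads were assigned to overlapping genes or paralogs, and whether strand was used, is not given in the sources used here.

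Levels are per-library TPM. The main test, two-sided, was fitted to log2(TPM + 1) with limma 3.58.1 (R 4.3.3) and a mean-variance trend, over the 8605 genes that reached 1 TPM in 2 or more libraries (2 residual and 3.27 prior degrees of freedom). The fit was tested on simulated data with 200 changed genes, and the outcome is not reported here. The design foresaw a count model only if the table held counts. Sums, shares and ratios used an exact permutation test. The 12 alternatives were 2 pseudocounts, 2 filters, 2 scalings, no variance trend, a replicate block and each library left out; where that leaves 1 library in a group, it is assumed to vary like the other group. Coordinates and current symbols are from Ensembl annotation of dm6. Figures were made with matplotlib 3.10.9, and tables with pandas 2.3.3, numpy 2.4.6 and Python 3.11.15.

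The members, the lists and the tests were chosen with earlier results of these data known. The rule for named genes took Paip1, every member, and any gene of the other initiation and elongation lists; the eIF genes under older names were added after the table had been seen. The libraries of a group did not hold the same values.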

Additional observations from a re-analysis of the deposited data

How the results depend on the processing

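The number of all tested genes past the threshold, 3852 with all libraries, ranged from 1013 to 3273 with 1 library left out, of which the higher ranged from 607 to 1089 and the lower from 406 to 2184. Under median-ratio scaling 1453 genes were lower, against 2506. Among the eIF genes, 7 were higher and 1 lower under median-ratio scaling and 1 was higher without a variance trend. With 1 library left out, 0 to 1 eIF genes were higher and 0 to 3 lower. The other initiation genes past the threshold ranged from 2 to 10 with 1 library left out, and the elongation and termination genes from 0 to 3. Of the cytosolic ribosomal proteins, 47 passed, but 5 with no filter on low values, 9 under median-ratio scaling, 23 after rescaling to a common sum, 28 without a variance trend, and 4 to 11 with 1 library left out. More cytosolic ribosomal proteins passed with a mean of at least 5 TPM (61 of 87) and with a replicate block (63 of 89). The log2 ratio of the members' summed TPM, in alternatives chosen after seeing the data, was 0.0846 under median-ratio scaling, -0.0483 after rescaling to a common sum, and between -0.160 and -0.142 with 1 library left out. Each scaling divides a library by 1 factor, from its sum or from the median ratio of its genes, which moves all genes of that library together. Why a left-out library matters was not tested.

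Signs turned only in members that did not pass the test. Under median-ratio scaling the log2 fold changes became positive in eIF-2gamma (0.0940), eIF-3p66 (0.185), eIF-4a (0.131), eIF-4E (0.0528), eIF2B-beta (0.222), eIF3-S8 (0.120), eIF3-S9 (0.182) and eIF5B (0.0829), and after rescaling to a common sum in eIF-3p66 (0.0532), eIF2B-beta (0.0927) and eIF3-S9 (0.0506). With 1 library left out, eIF-3p66 ranged from -0.161 to 0.0628, eIF2B-beta from -0.0646 to 0.0488, eIF2B-delta from -0.0202 to 0.126 and eIF3-S9 from -0.105 to 0.00106. Of the 41 genes followed by limma, the side of the threshold changed in 0 with a pseudocount of 0.5 or a mean of at least 5 TPM, in 1 (eIF-4B, adjusted p = 0.0493) with a pseudocount of 0.1, in 4 with no filter on low values, in 5 without a variance trend and in 5 after rescaling to a common sum. Under median-ratio scaling 7 lost the threshold and 5 gained it.

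The labels give both groups the replicate numbers 1 and 2 but do not say that a number marks a shared collection, and the replicate differences of the groups correlated at 0.065 across genes, so the samples were not treated as paired. With a replicate block, 4246 genes passed, 2 eIF genes were higher and 5 lower, and 5 elongation and termination genes passed. Read depth is unknown, and 2 libraries per group set the precision.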

Other observations

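The following genes overlap an eIF gene on the opposite strand. They were chosen after their values were seen. ver, which encodes a telomere-capping protein and overlaps eIF-2beta by 58 base pairs, was at 8.92 and 11.2 TPM in control and at 71.9 and 56.0 TPM in mutant discs (log2 fold change 2.55, limma adjusted p = 0.000785). eIF-2beta beside it had a log2 fold change of 0.16. CG8192, which overlaps eIF2B-gamma by 94 base pairs, was at 6.48 and 8.07 TPM in control and at 0.41 and 0.72 TPM in mutant discs (log2 fold change -2.40, adjusted p = 0.0017), while eIF2B-gamma had a log2 fold change of 0.12. mip130, a gene of the Myb complex that overlaps eIF2B-epsilon by 153 base pairs, was at 49.7 and 49.0 TPM in control and at 38.6 and 36.0 TPM in mutant discs (log2 fold change -0.40, adjusted p = 0.0346, and 0.291 under median-ratio scaling), and eIF2B-epsilon had a log2 fold change of -0.28. Whether strand was used in counting is not given in the sources used here, so reads of the shared parts cannot be assigned to one gene.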
